A study of Mus musculus with 18 samples.

Results

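The genes Gpr146, Mtss1, Mmp11, Pik3ip1, Rhobtb2 and Nuak1 were described here as a set of genes with less RNA in astrocyte cultures carrying the Gq-coupled receptor hM3Dq than in cultures carrying EGFP, 90 min after the ligand was added. They are 6 of the 22078 genes in the count tables, and all 6 passed the filter on low counts at both times. They were chosen by the 90 min counts of the hM3Dq and EGFP libraries, so their difference in that comparison is a description and supports nothing. The comparisons that used other libraries, hM3Dq against mCherry at 3 days and rM3Ds against hM4Di at 90 min, were tested.

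The study asked how designer G protein-coupled receptors (DREADDs) change gene expression in cultured mouse cortical astrocytes. These receptors answer to a synthetic ligand, here deschloroclozapine (DCZ), and hM3Dq, rM3Ds and hM4Di couple to Gq, Gs and Gi proteins. Cells grown in DMEM with fetal bovine serum were transfected with plasmids with the HilyMax reagent, and 7 days later every culture, the controls included, received 8 µM DCZ for 90 min. RNA was collected at 90 min from cells with hM3Dq, rM3Ds, hM4Di or EGFP, and 3 days after a change to medium without ligand from cells with hM3Dq or mCherry. There were 3 libraries in each of the 6 groups, 18 in all. The groups hold no receptor without ligand, and the control protein differed between the times (EGFP at 90 min, mCherry at 3 days). The labels give no mouse strain, no age and no promoter for the plasmids, and plasmid transfection need not reach every cell. Whether libraries 1 to 3 of a group are from separate cultures is not stated, and the spread behind each p-value may therefore be technical.

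Receptors coupled to Gq activate phospholipase C, which releases calcium from internal stores and activates protein kinase C and, downstream, MAP kinases. In astrocytes this pathway is engaged by many transmitters, and its best known transcriptional output is the rapid induction of immediate-early genes. Genes whose RNA is lower soon after such a stimulus are less often described, and the level of an RNA after 90 min depends on both its synthesis and its decay. The 6 genes have different roles. Gpr146 is an orphan G protein-coupled receptor known from work on plasma cholesterol. Pik3ip1 is a transmembrane protein that binds and inhibits PI3-kinase. Nuak1 is a protein kinase related to AMPK and activated by LKB1. Mtss1 is an I-BAR domain protein that links curved membranes to actin. Rhobtb2 is an atypical GTPase that serves as a cullin 3 adaptor. Mmp11 is a secreted matrix metalloproteinase, also called stromelysin 3.

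Promoter sequence was read for the genes as a description of a feature that the choice of the set did not use. The RefSeq promoter table of build GRCm38.p6 held windows for 4 of the 6 genes, Gpr146, Mmp11, Nuak1 and Pik3ip1, in 6 windows because Gpr146 has 3 annotated starts. Mtss1 and Rhobtb2 did not match. The 250 bases before each start were searched on both strands. The EGR motif (GCGNGGGCG), named for the zinc finger factors of the immediate-early Egr family, occurred in 3 of the 6 windows and in 3 of the 4 genes. Over all 32851 windows of the table, 4.7% held it. It is a GC-rich motif, and among the 9178 windows of at least 60% GC 14.5% held it. The 120 bases before the start of those 3 windows are shown 5′ to 3′ because they place the match in its context, with the EGR motif in capitals.
Gpr146: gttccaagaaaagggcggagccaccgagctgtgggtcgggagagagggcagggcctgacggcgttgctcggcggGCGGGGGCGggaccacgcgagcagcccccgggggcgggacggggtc
Mmp11: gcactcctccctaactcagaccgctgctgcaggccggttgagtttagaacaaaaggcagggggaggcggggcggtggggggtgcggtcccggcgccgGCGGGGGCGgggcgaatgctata
Nuak1: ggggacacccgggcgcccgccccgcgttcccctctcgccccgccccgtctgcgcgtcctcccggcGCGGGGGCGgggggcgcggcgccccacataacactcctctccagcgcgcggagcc

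These stretches lie upstream of the genes at chr5:139380519-139380638 on the plus strand for Gpr146, chr10:75932503-75932622 on the minus strand for Mmp11 and chr10:84440669-84440788 on the minus strand for Nuak1 (GRCm38.p6). The motif begins 46 bases before the start in Gpr146, 23 in Mmp11 and 55 in Nuak1, and the GC content of the 250 bases is 70%, 63.2% and 79.2%. In each of the 3 windows the EGR match overlaps a GC box (GGGCGG), a motif that 32.7% of all windows hold, so these letters do not separate the motifs. Another start of Gpr146 has a FOXO motif (GTAAACA), which 3.17% of all windows hold. The CRE (TGACGTCA), AP-1 (TGANTCA), E-box (CACGTG) and TATA box (TATAAA) motifs, present in 1.55%, 6.75%, 6.02% and 12.4% of all windows, were in none of the 6 windows, and the Pik3ip1 window held none of the motifs searched. The counts are per gene and do not say which start of Gpr146 these cells used.

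The cultures were checked for stimulation and cell type before the genes were described. Library totals were 16067367 to 25222365 estimated counts at 90 min and 16580509 to 19691525 at 3 days, and levels below are in CPM, the count of a gene scaled to the library total. Fos, an immediate-early gene and a marker of receptor stimulation, reached 52.7 ± 1.87 CPM (SD, n = 3) in the hM3Dq libraries, beside 13.5 ± 3.13 CPM in the EGFP libraries at 90 min. Its level was 19.7 ± 1.67 CPM with rM3Ds and 15.3 ± 2.18 CPM with hM4Di, nearer to EGFP than to hM3Dq. All 10 astrocyte markers were above 1 CPM in the 18 libraries, with a summed level of 489 to 1050 CPM. Gfap (1.70 to 22.7 CPM, median 2.69) and S100b (1.08 to 96.2 CPM, median 2.37) were low by their medians. The 6 fibroblast and mural markers summed to 1384 to 2636 CPM, led by Col1a1. Among defining markers of other cells, the neuronal genes Rbfox3, Syt1 and Snap25 were below 1 CPM in every library. So were the endothelial genes Pecam1, Cldn5, Cdh5 and Kdr. The microglial genes Cx3cr1, P2ry12, Aif1, Csf1r and C1qa were also below 1 CPM throughout, with P2ry12 at 0 in 16 of the 18. Other genes of those lists were detected: in all 18 libraries Map2 was at 98.7 to 173 CPM, microglial Tmem119 at 1.42 to 9.10 CPM and endothelial Tek at 3.05 to 58.3 CPM, and neuronal Stmn2 was above 1 CPM in 12 libraries (up to 50.9 CPM) and Tubb3 in 9 (up to 2.60 CPM). At 90 min EGFP library 1 and rM3Ds libraries 2 and 3 stood apart on the first principal component, which held 51.1% of the variance. Their cell cycle genes were high (28 genes, summed CPM up to 1215 in the EGFP group, against 256 to 330 with hM3Dq). At 3 days mCherry library 3 stood apart, on a component with 55.2% of the variance.

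Gpr146 had the largest log2 difference of the set with all libraries, and Nuak1 the largest without EGFP library 1 or without the 3 libraries that stood apart. With EGFP it was at 49.6, 36.9 and 34.7 CPM in libraries 1, 2 and 3, and with hM3Dq at 24.1, 21.5 and 21.98 CPM. With rM3Ds it was at 35.6, 42.0 and 46.2 CPM, and with hM4Di at 39.6, 32.0 and 35.1 CPM. The hM3Dq libraries were therefore the 3 lowest of the 12 at 90 min, and the groups with the other receptors overlapped EGFP. The group means were 22.5 ± 1.40 CPM with hM3Dq, 35.5 ± 3.80 CPM with hM4Di, 40.4 ± 8.02 CPM with EGFP and 41.3 ± 5.35 CPM with rM3Ds (SD, n = 3 each). The last 3 of these means did not differ beyond their spread. The log2 difference between hM3Dq and EGFP was -0.81 ± 0.16 (SE). EGFP library 1, with the high cell cycle level, was 0.54 above the mean of the other EGFP libraries on the log2 scale, and the difference was -0.62 without it. Because these are bulk cultures, fewer cells of a type and less RNA per cell cannot be told apart, for this gene and for the others below.

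Pik3ip1, the PI3-kinase inhibitor, had the smallest SE of the set at 90 min. It was at 115, 111 and 108 CPM with EGFP and at 71.3, 74.7 and 75.5 CPM with hM3Dq. It was at 102, 117 and 110.4 CPM with rM3Ds and at 112, 94.5 and 115 CPM with hM4Di. The 3 groups without hM3Dq overlapped one another, and the hM3Dq libraries lay below all of them. The group means were 73.8 ± 2.19 CPM with hM3Dq, 107 ± 10.9 CPM with hM4Di, 109.8 ± 7.88 CPM with rM3Ds and 111 ± 3.45 CPM with EGFP. The log2 difference between hM3Dq and EGFP was -0.56 ± 0.09, and -0.52 without EGFP library 1.

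Nuak1, the AMPK-related kinase, was at 88.1, 98.0 and 90.3 CPM with EGFP and at 57.3, 55.9 and 54.0 CPM with hM3Dq. It was at 87.4, 114 and 122 CPM with rM3Ds and at 135, 74.6 and 89.8 CPM with hM4Di. The hM3Dq libraries were close together and below the other 9, while the hM4Di libraries spread most, with library 1 the highest of the 12. The group means were 55.7 ± 1.66 CPM with hM3Dq, 92.1 ± 5.18 CPM with EGFP, 99.7 ± 31.2 CPM with hM4Di and 108 ± 18.1 CPM with rM3Ds, and the last 3 did not differ beyond their spread. The log2 difference between hM3Dq and EGFP was -0.69 ± 0.19. Its SE was the largest of the set.

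Mtss1, the membrane and actin linker, was at 136, 101 and 99.3 CPM with EGFP and at 66.2, 69.8 and 58.7 CPM with hM3Dq. It was at 102, 107 and 123 CPM with rM3Ds and at 76.4, 78.3 and 83.6 CPM with hM4Di. Here the hM4Di libraries stood between the others: all 3 were above the hM3Dq libraries and below the EGFP and rM3Ds libraries. The group means were 64.9 ± 5.65 CPM with hM3Dq, 79.4 ± 3.73 CPM with hM4Di, 111 ± 10.98 CPM with rM3Ds and 112 ± 20.6 CPM with EGFP. The log2 difference was -0.76 ± 0.13 for hM3Dq against EGFP and -0.52 ± 0.13 for hM4Di against EGFP, comparisons that share the EGFP libraries. Without EGFP library 1, where Mtss1 was 0.51 above the other EGFP libraries on the log2 scale, they were -0.58 and -0.33.

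Rhobtb2, the cullin 3 adaptor, had the smallest log2 difference of the set with all libraries. It was at 24.9, 26.6 and 26.0 CPM with EGFP and at 18.5, 20.03 and 15.2 CPM with hM3Dq. It was at 25.6, 21.2 and 22.9 CPM with rM3Ds and at 28.0, 24.7 and 26.6 CPM with hM4Di. The hM3Dq libraries were again the lowest 3, but rM3Ds library 2 came close to the highest of them. The group means were 17.9 ± 2.48 CPM with hM3Dq, 23.2 ± 2.18 CPM with rM3Ds, 25.8 ± 0.853 CPM with EGFP and 26.4 ± 1.65 CPM with hM4Di. The log2 difference between hM3Dq and EGFP was -0.49 ± 0.11, and -0.38 without hM3Dq library 3.

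Mmp11, the matrix metalloproteinase, was at 27.5, 26.6 and 23.3 CPM with EGFP and at 15.9, 17.0 and 15.8 CPM with hM3Dq. It was at 22.7, 26.6 and 26.4 CPM with rM3Ds and at 21.6, 20.6 and 26.7 CPM with hM4Di. The libraries without hM3Dq overlapped one another, and the hM3Dq libraries lay below all of them. The group means were 16.3 ± 0.668 CPM with hM3Dq, 22.95 ± 3.28 CPM with hM4Di, 25.2 ± 2.19 CPM with rM3Ds and 25.8 ± 2.17 CPM with EGFP. The log2 difference between hM3Dq and EGFP was -0.63 ± 0.11, and -0.57 without EGFP library 1.

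**Figure D1:**
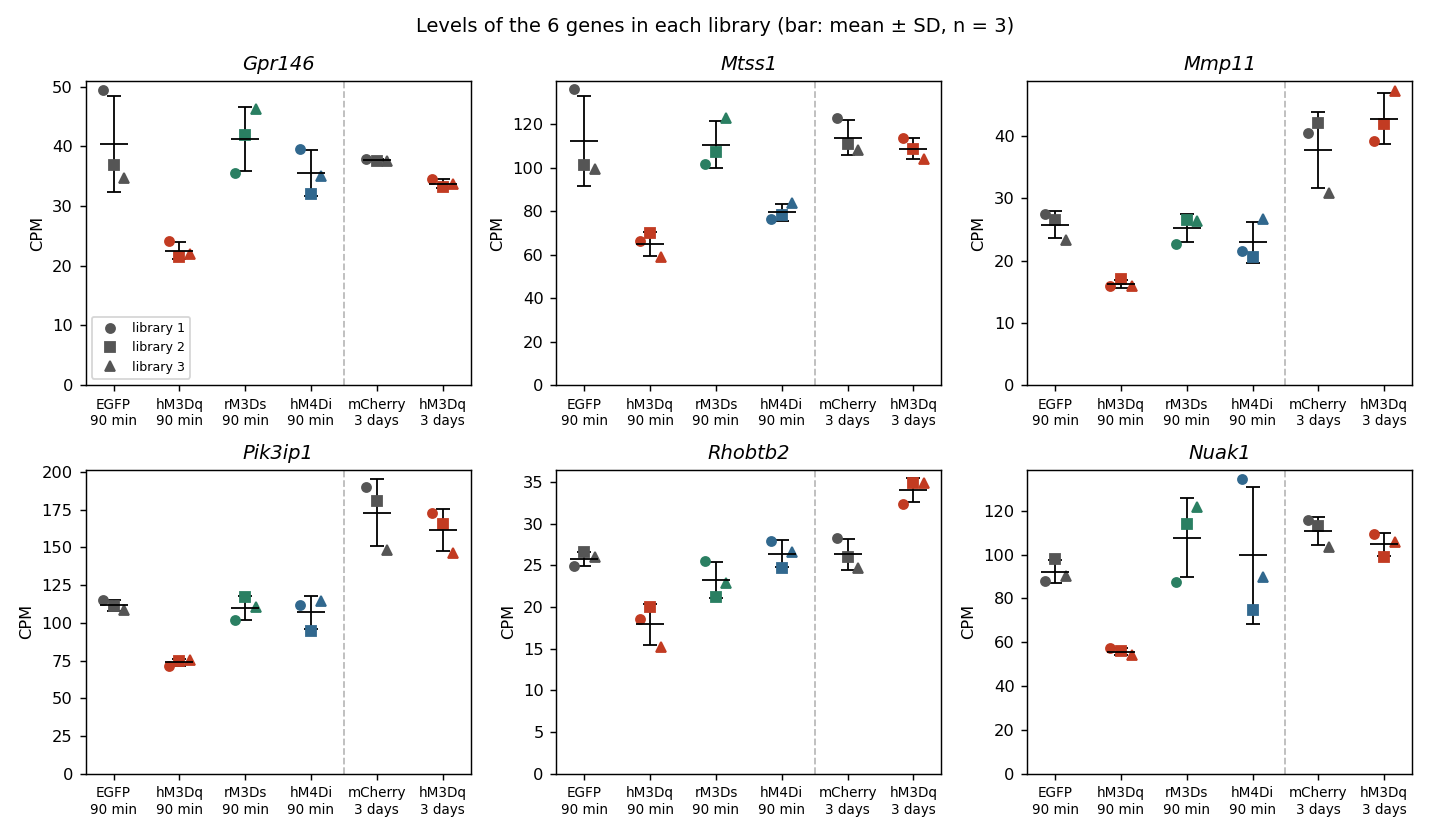
Level of each of the 6 genes in the 18 libraries, in CPM on a linear axis, by group. Each point is 1 library, the bar is the group mean and the whisker its SD (n = 3), and the dashed line separates the groups at 90 min from those at 3 days. In every panel the 3 hM3Dq points at 90 min lie below the other 9 points at that time. The hM3Dq and EGFP points at 90 min chose the genes, and the share of all genes with this joint pattern was not counted.

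The 6 genes stood at different places among the genes that were lower with hM3Dq. The quasi-likelihood test of edgeR over 13584 genes, with Benjamini-Hochberg adjustment at 0.05, called 103 genes higher (0.758%) and 4 lower with hM3Dq than with EGFP. The 4 were Pik3ip1, Mtss1, Mmp11 and Gpr146, in order of p. That is 0.0294% of the genes tested, and since this comparison chose the genes, nothing is read from their count. Gpr146 was just inside the threshold, and Lars2, a mitochondrial leucyl-tRNA synthetase, was just outside it at a log2 difference of -0.83 ± 0.17. Rhobtb2 and Nuak1 were not called and ranked 11th and 41st by p among the lower genes. The next genes outside the set after Lars2 were Ctdspl (-0.41 ± 0.09), Arvcf (-0.72 ± 0.16), Ppfibp2 (-0.74 ± 0.17) and Klhl24 (-0.66 ± 0.15), of a size like that of the members. The 3 hM3Dq libraries did not overlap the EGFP libraries for any of the 6 genes. The same was true in this direction of 9.44% of all genes tested. None of the lower genes (0%) was called when the replicate number entered the fit as a block, and the log2 differences of the members then ran from -0.80 for Gpr146 to -0.50 for Rhobtb2. With DESeq2, which called 0.261% of all genes lower, all 6 members were called. Without the 3 libraries that stood apart edgeR called 0.0647% of all genes lower, 2 of the members among them, and the log2 differences were -0.63 for Gpr146, -0.59 for Mtss1, -0.58 for Mmp11, -0.53 for Pik3ip1, -0.52 for Rhobtb2 and -0.72 for Nuak1. In edgeR fits without any 1 of the hM3Dq libraries, or without EGFP library 2, none of the members was called, and 2 were called without EGFP library 1. In all 78 values of hM3Dq against EGFP, over the 6 genes and the settings tried, the difference was below 0. These settings refit the libraries that chose the genes.

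Against the other receptors, hM3Dq was also lower, in comparisons that use the same hM3Dq libraries and so are given without a test. Against rM3Ds the log2 difference was -0.83 ± 0.16 for Gpr146, -0.52 ± 0.09 for Pik3ip1, -0.90 ± 0.19 for Nuak1, -0.72 ± 0.13 for Mtss1, -0.33 ± 0.12 for Rhobtb2 and -0.59 ± 0.11 for Mmp11. Against hM4Di it was -0.61 ± 0.15, -0.48 ± 0.09, -0.79 ± 0.19, -0.24 ± 0.13, -0.51 ± 0.11 and -0.44 ± 0.11 for the same genes in this order. The libraries of all 6 genes were apart in both comparisons, as were those of 14.7% of all genes against rM3Ds and 12.4% against hM4Di in this direction. Nuak1 had the largest value in both, and Mtss1 the smallest against hM4Di. Without hM4Di library 1, where Nuak1 was high, the Nuak1 value against hM4Di was -0.49.

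**Figure D2:**
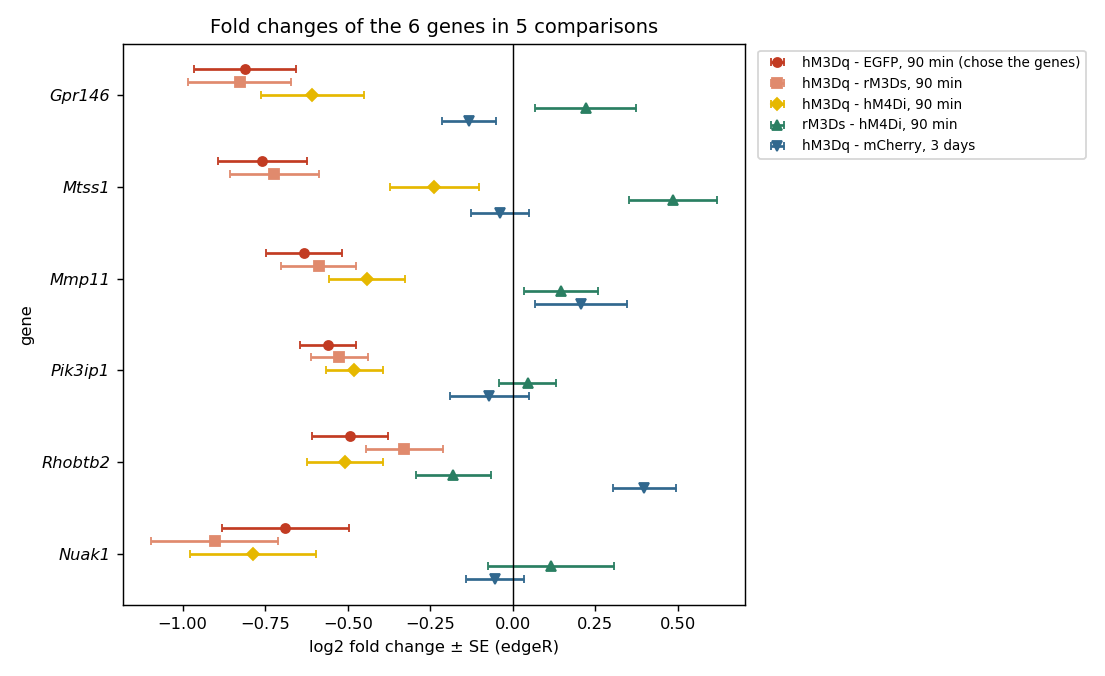
Log2 differences ± SE of the 6 genes. At 90 min the comparisons are hM3Dq against EGFP, rM3Ds and hM4Di, and rM3Ds against hM4Di. At 3 days the comparison is hM3Dq against mCherry. The points for hM3Dq at 90 min lie below 0 for all 6 genes. At 3 days 4 of the 6 points lie below 0 and 2 above. The SE bars of Gpr146, Mmp11 and Rhobtb2 at that time do not include 0. Of the wider confidence intervals given in the text for 3 days, only that of Rhobtb2 does not include 0.

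Libraries with the Gs and Gi receptors overlapped the EGFP libraries for most of the 6 genes. With rM3Ds the log2 difference from EGFP was 0.02 ± 0.15 for Gpr146, -0.03 ± 0.09 for Pik3ip1, 0.21 ± 0.19 for Nuak1, -0.04 ± 0.13 for Mtss1, -0.16 ± 0.11 for Rhobtb2 and -0.04 ± 0.11 for Mmp11, and the libraries overlapped for all 6, while those of 2.94% of all genes were apart and lower and those of 4.41% apart and higher. For Nuak1 it was -0.11 without the 3 libraries that stood apart. With hM4Di it was -0.20 ± 0.15, -0.08 ± 0.09, 0.10 ± 0.19, -0.52 ± 0.13, 0.02 ± 0.11 and -0.19 ± 0.11 in the same order. Mtss1 was the 1 gene of the 6 whose hM4Di and EGFP libraries were apart, as were those of 4.01% of all genes in this direction and 4.34% in the other. These comparisons share the EGFP libraries that chose the genes.

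The difference between rM3Ds and hM4Di, whose means use none of the libraries that chose the genes, was tested in the same fit, which takes its estimate of the spread from all 12 libraries. Mtss1 was higher with rM3Ds by 0.49 ± 0.13 on the log2 scale (95% confidence interval 0.19 to 0.78), with an unadjusted p of 0.00387 and an adjusted p of 0.277 in edgeR's quasi-likelihood test. Its libraries were apart, as were those of 5.78% of all genes in this direction and 5.02% in the other. The other values were 0.22 ± 0.15 for Gpr146, 0.04 ± 0.09 for Pik3ip1, 0.12 ± 0.19 for Nuak1, -0.18 ± 0.11 for Rhobtb2 and 0.15 ± 0.11 for Mmp11, with adjusted p-values of edgeR of 0.651, 0.867, 0.843, 0.622 and 0.676. None of the 6 was called by edgeR (0.0147% of all genes, 2 of 13584, were) and none by DESeq2 (1.5% of all genes were), and Mtss1 alone had an unadjusted p under 0.05. The median of the 6 values was 0.13, beside -0.0055 over all genes tested. Without the 3 libraries that stood apart, which leaves 1 rM3Ds library, the values of Pik3ip1 and Nuak1 turned to -0.061 and -0.18.

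At 3 days, after the ligand had been removed, the levels with hM3Dq were close to those with mCherry for most of the genes. Gpr146 was at 38.0, 37.6 and 37.6 CPM with mCherry and at 34.5, 33.1 and 33.7 CPM with hM3Dq. Pik3ip1 was at 190.2, 181 and 148 CPM with mCherry and at 173, 166 and 146 CPM with hM3Dq. Nuak1 was at 116, 113 and 104 CPM with mCherry and at 109, 98.8 and 106 CPM with hM3Dq. The Gpr146 libraries with hM3Dq were a little lower than those with mCherry without overlap, and those of Pik3ip1 and Nuak1 overlapped. Mtss1 was at 123, 111 and 108 CPM with mCherry and at 114, 109 and 104 CPM with hM3Dq. Mmp11 was at 40.6, 42.1 and 30.8 CPM with mCherry and at 39.3, 41.9 and 47.3 CPM with hM3Dq. Rhobtb2 was at 28.3, 26.1 and 24.7 CPM with mCherry and at 32.4, 34.9 and 34.8 CPM with hM3Dq. The libraries overlapped for Mtss1 and Mmp11, and all 3 hM3Dq libraries were above the mCherry libraries for Rhobtb2. In mCherry library 3, which stood apart, Mmp11, Pik3ip1, Nuak1, Mtss1 and Rhobtb2 each had their lowest value of the group.

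This 3-day comparison uses libraries that played no part in the choice and was tested over 12807 genes. Rhobtb2 was higher with hM3Dq by 0.40 ± 0.10 on the log2 scale (95% confidence interval 0.18 to 0.62), with an unadjusted p of 0.00339 and an adjusted p of 0.237 in edgeR's quasi-likelihood test. The intervals of the others included 0. They were -0.32 to 0.06 around -0.13 ± 0.08 for Gpr146, -0.35 to 0.21 around -0.07 ± 0.12 for Pik3ip1 and -0.26 to 0.15 around -0.05 ± 0.09 for Nuak1. For Mtss1 the interval was -0.24 to 0.17 around -0.04 ± 0.09, and for Mmp11 -0.12 to 0.53 around 0.21 ± 0.14. The adjusted p-values of edgeR were 0.500, 0.785, 0.776, 0.843 and 0.527 for Gpr146, Pik3ip1, Nuak1, Mtss1 and Mmp11.

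None of the 6 genes and 0 of the 12807 genes (0%) were called by edgeR at 3 days, and at an unadjusted p under 0.05 583 genes were higher and 957 lower. Of the 6, Rhobtb2 alone had an unadjusted p under 0.05. DESeq2 called 140 genes (1.08%) and none of the 6. The median over the 6 genes was -0.05, beside -0.007 over all genes tested. The groups were apart and lower for Gpr146 and apart and higher for Rhobtb2, as they were for 16.2% and 9.32% of all genes. Without mCherry library 3 edgeR called 1257 genes (9.72% of those tested), and Rhobtb2 was called at 0.35 ± 0.08 with an adjusted p of 0.00974. The other 5 were not called without that library, with values of -0.13 for Gpr146, -0.17 for Pik3ip1, -0.10 for Nuak1, -0.07 for Mtss1 and 0.08 for Mmp11.

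The effect of hM3Dq at 3 days minus its effect at 90 min was above 0 for all 6 genes. It was 0.69 ± 0.18 for Gpr146, 0.50 ± 0.15 for Pik3ip1, 0.64 ± 0.12 for Nuak1, 0.73 ± 0.18 for Mtss1, 0.90 ± 0.16 for Rhobtb2 and 0.85 ± 0.18 for Mmp11 (log2 scale, SE). These values contain the 90 min comparison that chose the genes and were not tested. The level in the control cultures also differed between the tables, most for Pik3ip1 (111 ± 3.45 CPM with EGFP at 90 min, 173 ± 22.2 CPM with mCherry at 3 days) and Mmp11 (25.8 ± 2.17 and 37.8 ± 6.12 CPM). Time, control protein and table cannot be told apart there. In the hM3Dq cultures the means at 3 days were 33.8 ± 0.704 CPM for Gpr146, 162 ± 14.0 CPM for Pik3ip1, 105 ± 5.27 CPM for Nuak1, 109 ± 4.87 CPM for Mtss1, 34.0 ± 1.42 CPM for Rhobtb2 and 42.8 ± 4.09 CPM for Mmp11. Each was above the mean of the same gene with hM3Dq at 90 min. Fos, in the same libraries, had a mean of 10.6 ± 0.537 CPM (hM3Dq) and 14.9 ± 1.57 CPM (mCherry).

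The culture state touched the members unequally. EGFP library 1 was above the mean of the other EGFP libraries by 0.54 for Gpr146, 0.51 for Mtss1, 0.21 for Mmp11 and 0.14 for Pik3ip1 on the log2 scale, and by -0.01 and -0.03 for Rhobtb2 and Nuak1. The mean of rM3Ds libraries 2 and 3 was above rM3Ds library 1 by 0.32 for Gpr146, 0.19 for Mtss1, 0.23 for Mmp11, 0.18 for Pik3ip1 and 0.44 for Nuak1, and by -0.20 for Rhobtb2. So Gpr146, Mtss1, Mmp11 and Pik3ip1 were higher in the libraries with high cell cycle genes in both groups, and Rhobtb2 was not. The cell cycle list (28 genes) had a median of -1.48 for hM3Dq against EGFP, and 0 of its genes were called by edgeR or had an unadjusted p under 0.05. The summed level of these genes was 265, 280 and 1215 CPM in the EGFP libraries, the highest in library 1, and 256 to 330 CPM with hM3Dq. The summed fibroblast and mural markers were 1850 to 2397 CPM with hM3Dq and 1776 to 2386 CPM with EGFP, and the summed astrocyte markers 848 to 939 CPM and 489 to 989 CPM. Over the 12 libraries, which share the hM3Dq group and the libraries that stood apart, Pearson's r with the cell cycle median was 0.72 for Gpr146, 0.63 for Mtss1, 0.53 for Mmp11, 0.51 for Pik3ip1, 0.49 for Nuak1 and 0.16 for Rhobtb2. The part of the culture state in the values of the members was not tested.

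**Figure D3:**
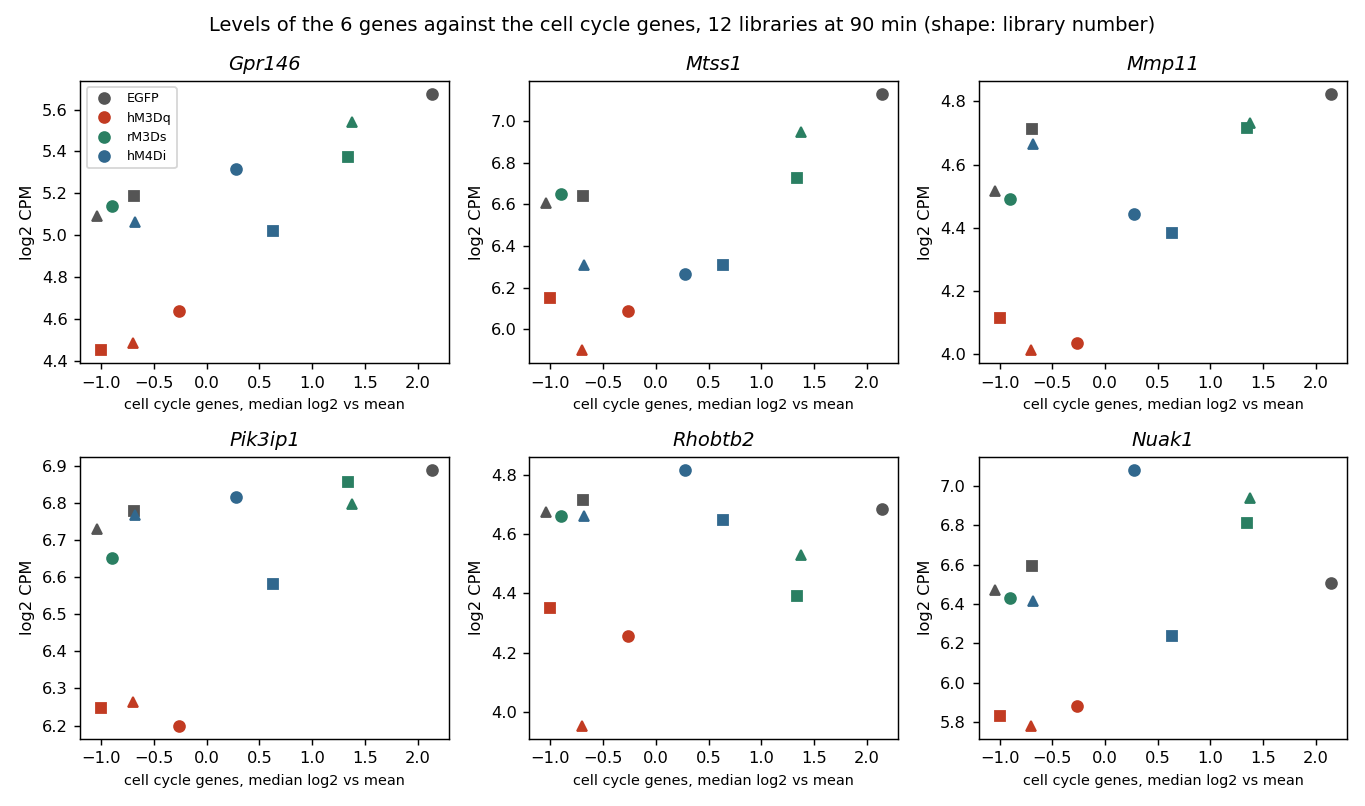
Log2 CPM of each of the 6 genes against the median log2 level of the 28 cell cycle genes, relative to its mean over libraries, in the 12 libraries at 90 min. Each point is 1 library coloured by group. The 3 libraries at the right are EGFP 1, rM3Ds 2 and rM3Ds 3, and the hM3Dq points lie low at a cell cycle level that other libraries share.

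Related genes were read from lists around the roles of 5 of the members, with the members left out. For Pik3ip1, none of 27 tested genes of the PI3-kinase and AKT pathway was called for hM3Dq against EGFP, 15 were below 0 and 12 above, and the median log2 difference was -0.0039, beside -0.0034 over all genes. The insulin receptor substrate Irs1 had the smallest p at -0.72 ± 0.18 with an adjusted p of 0.142 in edgeR. It was called without EGFP library 1, at -0.88 with an adjusted p of 0.0348, in a fit that called 0.748% of all genes. The PI3-kinase catalytic subunits Pik3cb and Pik3ca were at 0.26 ± 0.11 and -0.18 ± 0.13. Of the FOXO factors and their targets, which AKT restrains, 1 of 27 was called, 19 were below 0, and the median was -0.13. At an unadjusted p under 0.05, 2 of these 27 genes were higher and 7 lower, beside 590 higher and 488 lower of all 13584 genes tested, of which 51.0% were below 0. The called gene rose: Pdk4, a kinase that inhibits pyruvate dehydrogenase, at 1.23 ± 0.22 (adjusted p 0.0256 in edgeR). With the replicate block its adjusted p was 0.0925, and it was also above 0.05 without any 1 of the 3 hM3Dq libraries or EGFP library 1 or 2 (0.0596 to 0.116). Cited2 was at 0.52 ± 0.12 and Trp53inp1 at -0.53 ± 0.13, and neither was called.

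For Nuak1, none of 23 AMPK-related kinases and LKB1 partners was called, with a median of 0.04. The salt-inducible kinase Sik1 had the smallest p at 0.60 ± 0.13 (adjusted p 0.0865), opposite in sign to Nuak1, and Mark1 and Prkab2 were at -0.44 ± 0.17 and 0.35 ± 0.15. Mark1 was at -0.25 without EGFP library 1. For Mtss1, none of 30 I-BAR proteins and actin regulators was called, with a median of 0.03. Baiap2, an I-BAR protein like Mtss1, was at 0.57 ± 0.14 (adjusted p 0.141), and the WAVE complex genes Cyfip2 and Wasf1 were at -2.53 ± 1.08 and -0.81 ± 0.35, values that were -0.31 and -0.19 without EGFP library 1.

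For Mmp11, none of 18 tested metalloproteinases and inhibitors was called, with a median of 0.07. Mmp10, Reck and Timp1 had the smallest p, at 2.23 ± 0.72, -0.40 ± 0.15 and 0.42 ± 0.19, and Reck was at -0.20 without EGFP library 1. For Gpr146, none of 28 tested orphan receptors was called (41 listed), with a median of 0.02, and Gpr3, Gpr19 and Gprc5b were at 1.56 ± 0.60, -0.74 ± 0.36 and 0.24 ± 0.17. Without EGFP library 1 Gpr19 was at -0.34 and Gprc5b at 0.022, and without hM3Dq library 1 Gpr3 was at 1.02. Over these lists, 1 gene was called higher and none lower for hM3Dq against EGFP at 90 min with edgeR. In that comparison 0.788% of all genes tested were called in either direction. At an unadjusted p under 0.05 the lists other than FOXO held at most 3 genes in a direction, of 18 to 30 tested, with the counts over all genes given above. DESeq2 called 6 of the 18 list genes named here, Pdk4, Cited2, Sik1 and Baiap2 higher and Irs1 and Trp53inp1 lower. It called 231 of the 13808 genes it tested in this comparison. The 18 were named for their small p in the same comparison and counts, so nothing is read from the 6 calls. At 3 days no gene of these lists was called by edgeR, and the medians ran from -0.12 for the PI3-kinase list to 0.05 for the metalloproteinase list.

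**Figure D4:**
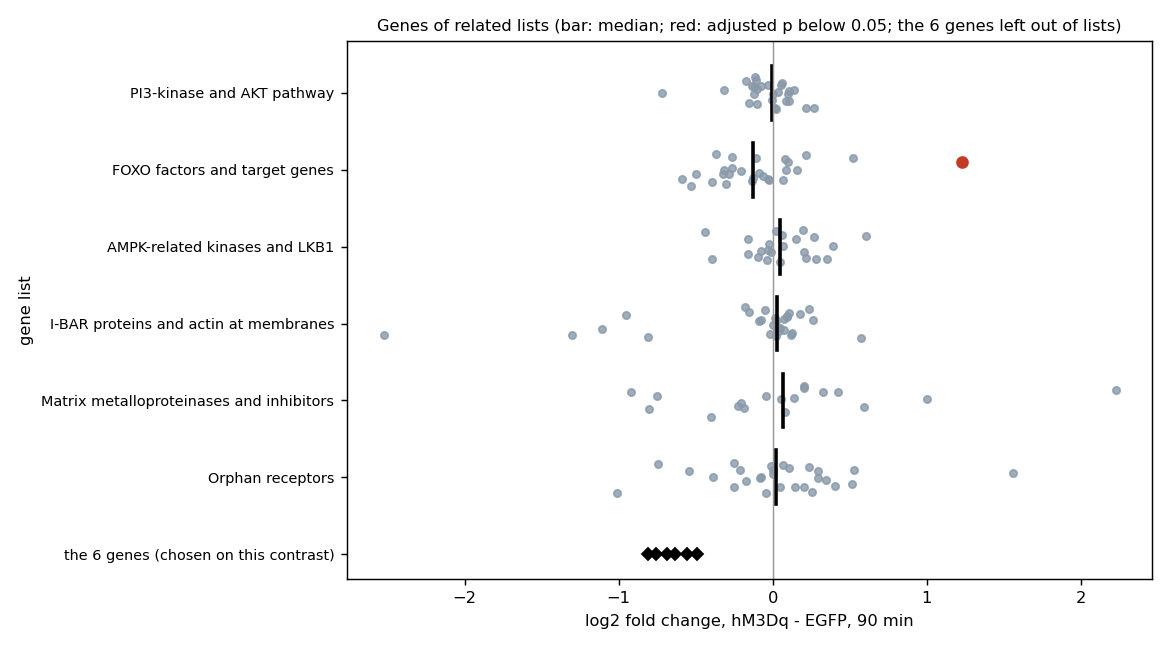
Log2 difference between hM3Dq and EGFP at 90 min for the genes of each list around the members' roles. Each point is 1 tested gene. The points of each list lie on both sides of 0, with medians between -0.13 and 0.07, and Pdk4 is the called gene.

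The genes whose levels followed each member most closely at 90 min were found by Pearson correlation of log2 CPM over the 12 libraries, among 11874 genes. These values describe the libraries, which share the hM3Dq group and the libraries that stood apart. For Gpr146 the closest were Thsd1 (0.984), Fam53b (0.973) and Tmem19 (0.946). For Mtss1 they were Kcnd1 (0.954), Dennd3 (0.948) and Pax9 (0.943). For Rhobtb2 they were Cdc42se2 (0.940), Ppfibp2 (0.909) and Atg13 (0.903), and for Nuak1 Fbxo31 (0.924), Atf7ip (0.922) and Card6 (0.922). Mmp11 and Pik3ip1 were each other's closest gene (0.950), with Gpr146 (0.914) and Tmco6 (0.913) next for Mmp11 and Thsd1 (0.938) and Tmco6 (0.933) next for Pik3ip1. Most of these relations were not present over the 6 libraries at 3 days: the correlation of Gpr146 with Thsd1 was -0.26 there, that of Mtss1 with Kcnd1 0.10, that of Mmp11 with Pik3ip1 0.21 and that of Nuak1 with Fbxo31 0.63. Between members, the correlations ran from 0.54 (Mtss1 with Rhobtb2) to 0.950 (Mmp11 with Pik3ip1) at 90 min and from -0.97 (Gpr146 with Rhobtb2) to 0.85 (Mtss1 with Pik3ip1) at 3 days.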

How the data were processed

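Poly(A) RNA of 18 libraries was sequenced, with fastp 0.23.4, Salmon 1.8.0 and build mm39 listed in the submitters' processing notes. The authors deposited estimated counts per Entrez gene for the 90 min and the 3-day libraries in separate tables, in which 55.9% and 30.5% of values are not whole. They were rounded to whole counts here. Of 22078 identifiers 21978 matched a symbol. Counts were scaled by TMM, filtered with filterByExpr and fitted with edgeR 4.0.16 (quasi-likelihood, robust, R 4.3.3), with the 12 libraries at 90 min in 1 fit (8 residual degrees of freedom) and the 6 at 3 days in another (4). P-values were adjusted over all genes tested (Benjamini-Hochberg, 0.05). Levels are CPM of the library total, and correlations use log2 CPM with a prior count of 1. The code was tested on simulated data. Library totals limit the precision of each level, but replicate libraries differed beyond sampling noise.

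The genes, the lists and the tests were chosen with earlier results of these data known. Named besides the members were the 5 next lower genes by p, up to 3 genes a list by p with every called gene, the 3 genes most correlated with each member over 12 libraries (mean log2 CPM at least 1), and Fos. Replicate numbers appear in all groups. Deviations from the group mean correlated at 0.120, 0.145 and 0.111 between same-numbered hM3Dq and EGFP libraries. Between differently numbered ones they correlated at -0.153 to 0.041. Any such weak pairing was read from the data and not from the labels, and the main fit left it out. Alternatives were DESeq2 1.42.0, RLE scaling, no filter, a replicate block, fits on only the groups compared and leaving out libraries. Some list genes and lists are not reported here.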

Additional observations from a re-analysis of the deposited data

Results flagged for a closer look

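Rhobtb2 was the 1 gene of the 6 whose hM3Dq libraries were all below the control libraries at 90 min and all above them at 3 days. The log2 effect at 3 days minus that at 90 min was 0.90 ± 0.16 (SE), from -0.49 at 90 min and 0.40 at 3 days. The difference between the times was not tested, because the 90 min comparison chose the gene.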

How the results depend on the processing

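The 6 genes stayed lower with hM3Dq than with EGFP, rM3Ds and hM4Di in all settings tried. Each setting used hM3Dq libraries that chose the genes, so the constant sign is a description and supports nothing. The count of genes called for hM3Dq against EGFP was 107. It was 231 with DESeq2, 66 with the replicate block, 28 with the block on the 2 groups alone and 50 to 103 without any 1 library of the 2 groups. For rM3Ds against hM4Di it was 2, then 213 with DESeq2, 0 with the replicate block, 0 with only the 2 groups, 0 without the 3 libraries that stood apart and 0 to 392 without 1 library (392 without rM3Ds library 1). For 3 days it was 0, then 140 with DESeq2, 1 without the filter and 0 to 1257 without 1 library (1257 without mCherry library 3). The comparison of hM3Dq with EGFP chose the 6 genes, so nothing is read from their counts there. Of the 6 genes, 4 were called, where 0.0294% of all genes were called lower. With DESeq2 6 were called (0.261% of all genes lower), and with the replicate block 0 (0%). With only the 2 groups 2 were called, in a fit that called 75 genes in either direction. Without 1 library 0 to 6 of all genes were called lower, and of the 6 genes 0 to 4 were called. At 3 days 0 to 1 of them were called without 1 library, and 0 for rM3Ds against hM4Di in all settings. In rM3Ds against hM4Di, Pik3ip1 and Nuak1 turned to -0.061 and -0.18 without the 3 libraries and ran from -0.044 to 0.091 and from -0.065 to 0.41 without 1 library. At 3 days Mtss1 ran from -0.075 to 0.019 and Pik3ip1 from -0.17 to 0.0012 without 1 library. The causes were not tested. At 3 days same-numbered libraries shared only a number (correlations 0.043, 0.010 and 0.025) and with the replicate block the adjusted p of Rhobtb2 was 0.393. In rM3Ds against hM4Di they were -0.399, -0.096 and -0.393. Besides the calls named, the block changed no call among the 6 genes.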

Other observations

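The genes of the FOXO factors themselves were not described above. Against EGFP at 90 min the log2 difference with hM3Dq was -0.50 ± 0.22 for Foxo1, -0.37 ± 0.17 for Foxo3, -0.26 ± 0.09 for Foxo4 and 0.08 ± 0.38 for Foxo6, the 4 genes of the family (SE, edgeR). None was called, with adjusted p-values of 0.615, 0.630, 0.355 and 0.990 from edgeR. The hM3Dq and EGFP libraries were apart for Foxo1, Foxo3 and Foxo4, as were those of 9.44% of all genes in this direction. The family was looked at after its values were seen.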
